A study of Mus musculus with 16 samples.

Results

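The data describe what hypertension induced by angiotensin II (AngII) changed in the aorta of C57BL/6J mice, an inbred laboratory strain. AngII, a peptide of the renin-angiotensin system, makes arteries contract and the kidney retain salt. The comparison uses the 8 C57BL/6J libraries of the 16 in the series: 4 labelled AngII (samples 1, 2, 3 and 5) against 4 labelled control (samples 1, 2, 3 and 5). The other 8 libraries come from 129S6/SvEvTac mice, a second inbred strain, again 4 with AngII and 4 controls, and serve here to estimate the spread and to test where the AngII effect differed. Each library is total RNA from a whole descending thoracic aorta, so smooth muscle, endothelium, adventitial fibroblasts and whatever tissue came with the vessel are measured together. All 17125 genes with enough counts to test, of 52636 in the table, are members of the comparison. The labels give no allele other than the strain. The sources used here give neither the AngII dose nor its duration, nor the age or sex of the mice. The labels do not say that samples came from separate animals either, so a p-value measures only how far these samples spread.

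AngII acts on the type 1 angiotensin receptor of smooth muscle and fibroblasts and raises the load on the aortic wall. In that setting the wall is known to thicken: smooth muscle cells lose contractile proteins, fibroblasts divide and secrete matrix, and leukocytes enter the adventitia. A cell that divides or secretes must first build nucleotides, amino acids, glycans and endoplasmic reticulum (ER) capacity, and cells of the wall keep in contact through junctions, guidance receptors and growth factors. Those groups of genes are the subject here, beside the matrix, contractile and macrophage genes that mark the process most directly.

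The 8 libraries held between 43146077 and 61381134 counts. On the first principal component of these 8, which held 56.6% of the variance, the controls lay between 62.41 and 82.54 and the AngII samples at -102.8, -76.88, -26.84 and -80.59, so AngII sample 3 was the one nearest to the controls. Summed smooth muscle markers stood at 40664 to 44018 counts per 1e6 counts (CPM) in the controls and at 12884 to 30761 CPM with AngII, and 9 of the 10 fell, 9 also without AngII samples 1 and 5; the defining markers of the labelled tissue were abundant in every library. In whole tissue, fewer cells of a type and less RNA per cell cannot be told apart. AngII samples 1 and 5 also stood apart in adipocyte markers. The sum of 12 pan-adipocyte markers was 245 to 542 CPM in the controls and 4852, 875, 366 and 2861 CPM in AngII samples 1, 2, 3 and 5. Counts of list members are therefore given for all 8 samples and again, in parentheses, without AngII samples 1 and 5. Counts of 4 or more are also given with 1 library left out, with scaling by library size alone or with the adipocyte score (the mean log2 CPM of adipocyte markers) in the model, wherever that moved them by over 1.5 times. Smaller counts are given under these settings where they moved by 2 or more, and with their range on leaving out any 1 library where it moved by over 1.5 times. The gene lists hold 1247 entries, of which 40 were below the count filter and 1 was not matched, and counts are over the members tested. Fits with libraries left out were filtered again, so their counts can be over slightly different members. Without AngII samples 1 and 5, for example, 11 type 2 immune genes were tested instead of 10, and 24 Hox genes instead of 23. None of the 15 lists of cell type markers was wholly at 0, but Myh1, Myh2, Myh4 and Pvalb, which define skeletal muscle fibres, had no counts in the controls.

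Of the 17125 genes, 3737 rose and 2927 fell at an adjusted p below 0.05 by edgeR's quasi-likelihood test with Benjamini-Hochberg adjustment, that is 38.9% of genes, 21.8% higher and 17.1% lower. The rises were the larger changes: 1968 genes rose and 848 fell by more than 2-fold, and 567 rose and 45 fell by more than 8-fold. Over all genes tested the median log2 fold change was 0.009. Scaling by library size alone, without a correction for composition, turned the balance of calls from 56.1% higher to 45.4% higher. Without AngII samples 1 and 5, 4650 of the 6664 genes were still called, 2607 that rose and 2043 that fell. In what follows rose and fell are used only of genes that passed this test, folds are given with the log2 fold change ± SE in parentheses (n = 4 per group), and the values of single samples are in the order 1, 2, 3 and 5.

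Among the largest rises outside the usual matrix and cytokine genes was Cthrc1, a secreted protein known from injured arteries (ENSMUSG00000054196.6, chromosome 15, 39076932 to 39087121, GRCm38). The controls held 0.704, 0.863, 1.46 and 1.07 CPM and the AngII samples 223, 142, 57.1 and 244 CPM. The groups did not overlap, and the log2 fold change was 7.35 ± 0.71 (SE, n = 4 per group, adjusted p = 3.17e-06); it was 6.60 without AngII samples 1 and 5. Olr1, the lectin-like receptor for oxidised lipoproteins (ENSMUSG00000030162.14, chromosome 6, 129485244 to 129507165), was at 0, 0, 0.18 and 0 CPM in the controls and at 3.42, 22.3, 3.78 and 1.73 CPM with AngII. AngII sample 2 stood far above the other AngII samples, all of which lay above the controls, and the log2 fold change was 7.39 ± 1.21 (adjusted p = 0.00023); it was 5.99 without AngII sample 2, 11.71 without control sample 3 and 8.12 without AngII samples 1 and 5. The other controls held 0 counts of Olr1, so its value without control sample 3 depends on the prior count of the fit and is no bound. Thbs4, thrombospondin 4, rose by 6.67 ± 1.29 on the log2 scale (adjusted p = 0.00086), with AngII sample 3 at only 0.788 CPM against 44.4, 54 and 60.9 CPM in the others. Every AngII sample still lay above every control. Kntc1, a kinetochore protein, rose 69.9-fold (log2 6.13 ± 0.99; 6.86 without control sample 3), and Arg1, arginase 1, rose 81.2-fold (log2 6.34 ± 1.66; 7.56 without control sample 3), from 0, 0, 0.301 and 0.141 CPM to 1.97, 12.1, 11.9 and 10.1 CPM, with AngII sample 1 the lowest of the AngII samples.

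Among named protein-coding genes whose groups did not overlap and whose higher mean reached 5 CPM, the steepest fall was that of Gria1, a subunit of AMPA-type glutamate receptors (ENSMUSG00000020524.16, chromosome 11, 57011387 to 57330244). It went from 10.9, 11.5, 12.1 and 6.88 CPM in the controls to 0.141, 0.065, 1.23 and 0.437 CPM with AngII, with no overlap, and its log2 fold change was -4.43 ± 0.61 (adjusted p = 5.13e-05), or -5.51 without AngII sample 3. Rab17, a small GTPase of membrane traffic, fell 8.37-fold (log2 -3.07 ± 0.45). Inmt, indolethylamine N-methyltransferase (ENSMUSG00000003477.5, chromosome 6, 55170626 to 55175043), had 66.9, 96.8, 86.6 and 84.6 CPM in the controls and 2.69, 8.57, 37.9 and 7.86 CPM with AngII. AngII sample 3 stood above the other AngII samples and still below every control, and the log2 fold change was -2.55 ± 0.57 (adjusted p = 0.00253); it was -3.70 without AngII sample 3 and -1.87 without AngII samples 1 and 5. Tcap, the titin cap protein telethonin, fell 5.08-fold (log2 -2.34 ± 0.30), from 259 ± 53.1 to 51 ± 26.8 CPM (SD, n = 4). Vwc2, a secreted antagonist of bone morphogenetic proteins, fell 4.85-fold (log2 -2.28 ± 0.25), from 44 ± 8.15 to 9.06 ± 3.44 CPM.

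Some of the genes named here share exon positions with another annotated gene, and the sources used here do not say whether the counting used strand, so their values are uncertain. They are Bcl2, Bdnf, Cdkn1a, Cpt1b, Cyp51, Dsp, Ereg, Ezh2, Fen1, Foxf1, Ftl1, Gfra1, Gli1, H19, Hif1a, Hoxa3, Hoxb5, Hsp90b1, Il4ra, Mt2, Pde5a, Pdia6, Pfkm, Plxnb1, Prc1, Rarres2, Runx1, S1pr3, Spp1, Top2a, Tpm4 and Unc5c.

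**Figure D1:**
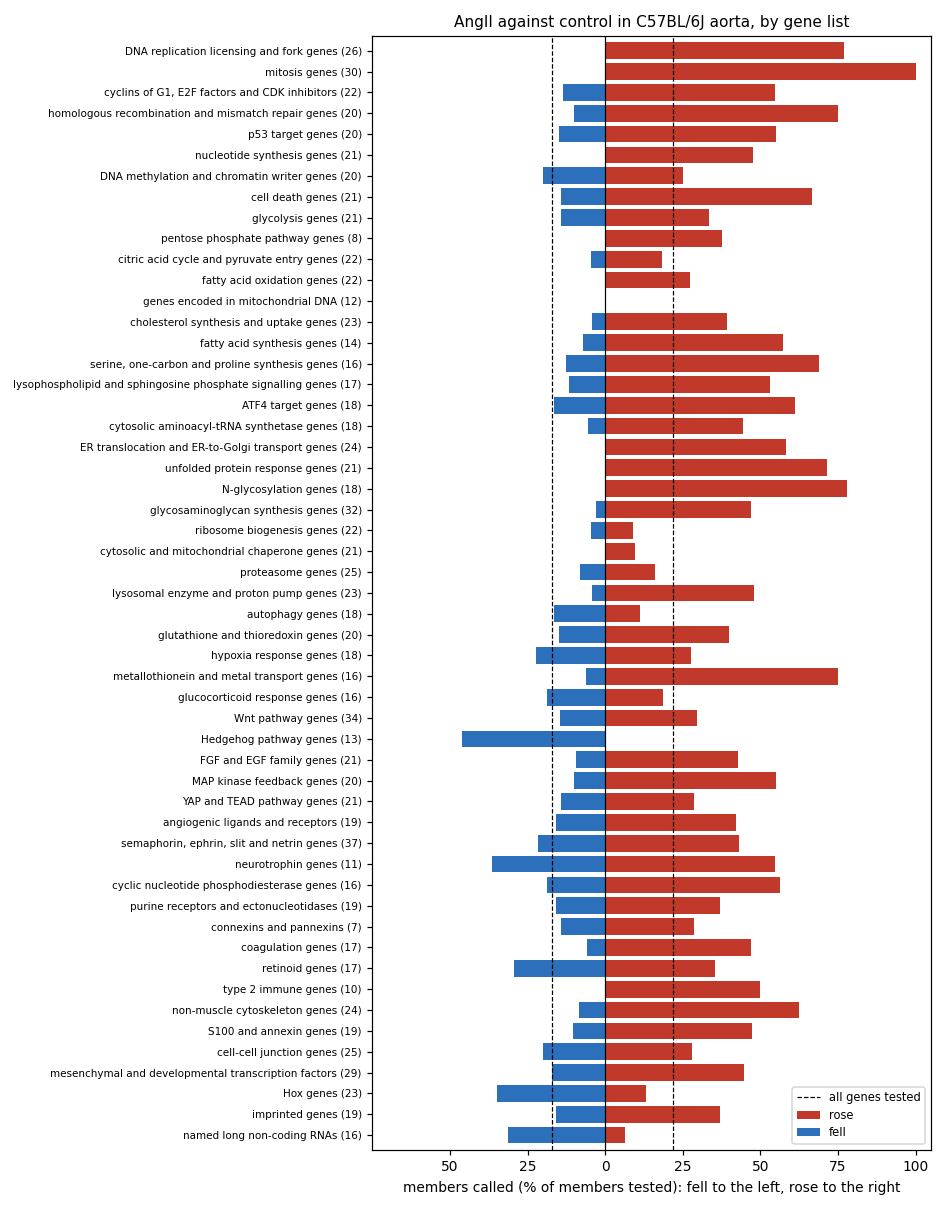
Share of the tested members of 53 gene lists that rose (red, right) or fell (blue, left) with AngII in C57BL/6J aorta, as percent of members tested (number in parentheses); dashed lines mark 21.8% and 17.1%, the shares over all genes tested. All 30 mitosis genes rose, Hedgehog and Hox lists lean to the left, and no mitochondrially encoded gene was called.

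Cell division genes rose nearly throughout. Cells copy DNA once licensed helicases (the MCM proteins) are loaded and fork enzymes assemble, and they divide under cyclin B and CDK1. Of 26 genes for DNA replication licensing and forks, 20 rose and 0 fell, with a median log2 fold change of 1.08 (19 and 0 without AngII samples 1 and 5). Mcm5, a subunit of the replicative helicase (ENSMUSG00000005410.6, chromosome 8, 75109569 to 75128439), held 4.42, 4.14, 5.17 and 5.33 CPM in the controls and 24.9, 30.7, 13.1 and 16.4 CPM with AngII. Its groups did not overlap, AngII samples 3 and 5 were the lower AngII samples, and the log2 fold change was 2.16 ± 0.25 (adjusted p = 1.25e-05). Cdc6, which loads the helicase, rose 10.6-fold (log2 3.41 ± 0.42), and Mcm10, which helps to fire it, rose 19-fold (log2 4.25 ± 0.70). Of 30 mitosis genes, 30 rose and 0 fell, with a median log2 fold change of 4.69 (30 and 0 without AngII samples 1 and 5). Mki67, the proliferation antigen Ki-67 (ENSMUSG00000031004.8, chromosome 7, 135689784 to 135716361), went from 4.09, 2.31, 4.35 and 3.16 CPM to 116, 167, 44.4 and 61.5 CPM. The order of the AngII samples was that seen for Mcm5, with sample 2 highest and sample 3 lowest, and the log2 fold change was 4.80 ± 0.45 (adjusted p = 2.68e-06). Cdk1, the mitotic kinase, rose 22.7-fold (log2 4.5 ± 0.45), Top2a, the topoisomerase that untangles chromosomes, 32-fold (log2 5.0 ± 0.46), and Kif2c, a kinesin that depolymerises microtubules, 59.5-fold (log2 5.90 ± 0.84).

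Promoter windows of these groups are shown because their members moved together. The windows come from RefSeq on GRCm38.p6 and run from 250 bases before to 50 bases after the start. Windows were found for 25 of 30 mitosis genes (27 windows) and 21 of 26 replication genes (25 windows). The cell cycle homology region, searched as TTTGAA or TTCGAA on both strands, was in 77.8% of mitosis windows, 24% of replication windows and 19.2% of all 32851 windows. The E2F motif, searched on both strands as TTCCCGC, also as TTGGCGC and also as TTCGCGC, was in 68.0% of replication windows, 18.5% of mitosis windows and 8.07% of all windows. The capitals below therefore also show reverse complements such as TTCAAA or GCGGGAA. The E2F motif was also in 62.5% of windows of repair genes and 22.2% of windows of unfolded protein response genes, so it was not confined to replication genes. Matches of 1 kind can overlap, and a match is a description of letters, not a binding site. The first 3 windows below belong to the mitosis genes with the smallest p among those whose window holds the cell cycle homology region, in capitals. The next 3 belong to the replication genes chosen in the same way for the E2F motif, and all read 5′ to 3′ on the strand of the gene.
Top2a, chr11:99024140-99024439, minus strand: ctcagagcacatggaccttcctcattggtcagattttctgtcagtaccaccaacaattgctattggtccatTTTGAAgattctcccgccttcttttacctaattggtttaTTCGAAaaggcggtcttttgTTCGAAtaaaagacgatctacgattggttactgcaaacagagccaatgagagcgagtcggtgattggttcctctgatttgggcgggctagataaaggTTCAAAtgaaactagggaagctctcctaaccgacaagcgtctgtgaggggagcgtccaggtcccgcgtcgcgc
Mki67, chr7:135716330-135716629, minus strand: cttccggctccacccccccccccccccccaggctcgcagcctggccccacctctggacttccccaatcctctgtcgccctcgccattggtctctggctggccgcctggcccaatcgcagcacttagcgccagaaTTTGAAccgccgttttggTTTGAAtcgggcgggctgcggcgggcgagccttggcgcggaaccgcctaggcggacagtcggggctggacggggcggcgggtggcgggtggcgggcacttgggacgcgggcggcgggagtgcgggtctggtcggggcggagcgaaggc
Prc1, chr7:80294201-80294500, plus strand: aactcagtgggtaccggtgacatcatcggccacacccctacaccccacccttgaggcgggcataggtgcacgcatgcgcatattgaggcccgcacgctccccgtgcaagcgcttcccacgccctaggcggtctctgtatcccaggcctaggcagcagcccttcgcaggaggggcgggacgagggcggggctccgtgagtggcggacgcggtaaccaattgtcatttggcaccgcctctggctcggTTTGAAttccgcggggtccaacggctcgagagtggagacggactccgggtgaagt
Mcm5, chr8:75109259-75109558, plus strand: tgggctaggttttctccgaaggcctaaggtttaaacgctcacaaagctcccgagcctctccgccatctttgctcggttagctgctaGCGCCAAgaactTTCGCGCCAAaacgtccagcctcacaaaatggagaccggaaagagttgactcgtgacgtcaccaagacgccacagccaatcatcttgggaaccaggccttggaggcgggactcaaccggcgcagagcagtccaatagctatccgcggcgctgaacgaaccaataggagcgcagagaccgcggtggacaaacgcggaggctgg
Cdc6, chr11:98907901-98908200, plus strand: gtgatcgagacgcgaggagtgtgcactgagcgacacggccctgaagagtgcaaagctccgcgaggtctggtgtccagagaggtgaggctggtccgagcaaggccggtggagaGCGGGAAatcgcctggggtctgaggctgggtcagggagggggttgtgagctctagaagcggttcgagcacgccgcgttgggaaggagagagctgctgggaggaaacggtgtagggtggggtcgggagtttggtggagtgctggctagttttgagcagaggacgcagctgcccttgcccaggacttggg
Fen1, chr19:10203872-10204171, minus strand: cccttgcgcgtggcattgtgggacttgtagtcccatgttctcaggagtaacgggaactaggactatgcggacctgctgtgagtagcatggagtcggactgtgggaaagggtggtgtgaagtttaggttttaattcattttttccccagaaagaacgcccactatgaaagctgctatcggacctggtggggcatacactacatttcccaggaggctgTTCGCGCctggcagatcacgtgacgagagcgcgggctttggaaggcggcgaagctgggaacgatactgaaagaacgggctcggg
Prc1, which bundles the spindle midzone, rose 17.4-fold (log2 4.12 ± 0.39), and Fen1, the flap endonuclease that processes Okazaki fragments, rose 2.79-fold (log2 1.48 ± 0.22).

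Most genes of cycle entry and repair rose as well, and part of the nucleotide synthesis genes. Of 22 G1 cyclins, E2F factors and CDK inhibitors, 12 rose and 3 fell, with a median log2 fold change of 1.0 (12 and 2 without AngII samples 1 and 5; 12 and 0 with adipocyte score in the model). Ccne1, cyclin E1, rose 15.4-fold (log2 3.94 ± 0.45) and E2f1, a transcription factor of the G1 to S transition, rose 4.18-fold (log2 2.06 ± 0.24). Cdkn1a, the CDK inhibitor p21, rose too, from 40.6 ± 6.1 to 111 ± 18.1 CPM (SD, n = 4). Of 20 genes of homologous recombination and mismatch repair, 15 rose and 2 fell, with a median log2 fold change of 1.70 (14 and 1 without AngII samples 1 and 5; 1 to 2 falls on leaving out any 1 library). Brca1, which acts in recombination repair, rose 13-fold (log2 3.70 ± 0.36). Of 21 nucleotide synthesis genes, 10 rose and 0 fell, with a median log2 fold change of 0.26 (9 and 0 without AngII samples 1 and 5). Rrm2, the ribonucleotide reductase subunit that limits DNA precursors, was at 2.03, 2.44, 2.04 and 1.99 CPM in the controls and at 26.2, 42.9, 13.9 and 15.3 CPM with AngII. No AngII sample came near the controls, and the log2 fold change was 3.53 ± 0.32 (adjusted p = 2.03e-06).

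Most cell death genes rose, while chromatin genes were called about as often as all genes. Of 20 DNA methylation and chromatin writer genes, 5 rose and 4 fell, with a median log2 fold change of 0.00 (4 and 3 without AngII samples 1 and 5; 3 and 3 with adipocyte score in the model). The rises numbered 3 without AngII sample 2 or control sample 2. Uhrf1, which keeps DNA methylation through replication, rose 20-fold (log2 4.32 ± 0.38), and Ezh2, the histone methyltransferase of dividing cells, rose 3.32-fold (log2 1.73 ± 0.18). Rises and falls of this list were near the shares of all genes, 21.8% and 17.1%. Tet1, which oxidises methylated cytosine, fell 2.79-fold (log2 -1.48 ± 0.22) and Ezh1, the paralog of Ezh2 known from resting cells, fell 1.73-fold (log2 -0.79 ± 0.10). Of 20 p53 target genes, 11 rose and 3 fell, with a median log2 fold change of 0.65 (12 and 2 without AngII samples 1 and 5). Plk2, a stress-induced kinase, rose 4.66-fold (log2 2.22 ± 0.33; 1.36 without AngII samples 1 and 5). Eda2r, the ectodysplasin A2 receptor, rose 3.61-fold (log2 1.85 ± 0.18), while Btg2, an antiproliferative gene, fell 1.98-fold (log2 -0.99 ± 0.18). Of 21 cell death genes, 14 rose and 3 fell, with a median log2 fold change of 0.67 (11 and 4 without AngII samples 1 and 5). Ripk3 and Mlkl, the kinase and the pore-forming effector of necroptosis, rose. Ripk3 held 1.01, 0.539, 0.822 and 1.07 CPM in the controls and 16, 17.3, 7.45 and 9.51 CPM with AngII, all AngII samples above all controls, a log2 fold change of 3.86 ± 0.34 (adjusted p = 1.61e-06). Mlkl rose 3.47-fold (log2 1.79 ± 0.26) and Casp8, the initiator caspase of death receptors, 1.91-fold (log2 0.93 ± 0.09). Bmf and Bik, which promote apoptosis, fell 3.19-fold (log2 -1.67 ± 0.28; -2.35 without AngII samples 1 and 5) and 2.72-fold (log2 -1.45 ± 0.22), and Bcl2, which blocks it, fell 1.79-fold (log2 -0.84 ± 0.17). Macrophage markers, all 10 of which rose, were also higher with AngII, at 1124 to 2162 CPM against 391 to 522 CPM in the controls. Their part in the cell death counts was not tested.

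Most genes for the making and export of secreted proteins rose, by modest amounts. Secreted proteins enter the ER through the Sec61 channel, are folded and N-glycosylated there and move on to the Golgi. The unfolded protein response (UPR) raises ER chaperones when folding demand grows. Of 24 genes of ER translocation and ER-to-Golgi transport, 14 rose and 0 fell, with a median log2 fold change of 0.44 (13 and 0 without AngII samples 1 and 5). Ssr3, a subunit of the translocon-associated complex (ENSMUSG00000027828.12, chromosome 3, 65379655 to 65392623), held 298, 300, 287 and 271 CPM in the controls and 473, 519, 518 and 440 CPM with AngII. The groups did not overlap, the samples of each lay close together, and the log2 fold change was 0.75 ± 0.07 (adjusted p = 3.07e-06). Kdelr2, which returns ER proteins from the Golgi, rose 1.81-fold (log2 0.86 ± 0.13). Of 21 UPR genes, 15 rose and 0 fell, with a median log2 fold change of 0.62 (17 and 0 without AngII samples 1 and 5). Pdia6, a disulphide isomerase, rose 1.97-fold (log2 0.98 ± 0.14), Hsp90b1, the ER chaperone GRP94, 1.79-fold (log2 0.84 ± 0.13), Canx, the lectin chaperone calnexin, 1.38-fold (log2 0.46 ± 0.08), and Edem1, which sends misfolded glycoproteins to degradation, 1.73-fold (log2 0.79 ± 0.10). Hspa5, the ER chaperone BiP, did not pass the test, with 383, 291, 551 and 296 CPM in the controls and 475, 577, 551 and 739 CPM with AngII (log2 fold change 0.62 ± 0.28, adjusted p = 0.0961). Of 18 N-glycosylation genes, 14 rose and 0 fell, with a median log2 fold change of 0.40 (13 and 0 without AngII samples 1 and 5). Ostc rose 1.82-fold (log2 0.87 ± 0.12), and Stt3a, the catalytic subunit of the oligosaccharyltransferase, 1.61-fold (log2 0.68 ± 0.09).

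Windows were found for 18 of the 21 UPR genes. The ER stress element, searched as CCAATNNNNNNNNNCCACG on both strands, which contains the CCAAT box, was in 7 of these 18 windows (38.9%) and in 39 of all 32851 windows (0.119%). None of the mitosis or replication windows held it. The 3 windows below have it in capitals, spacer included, and belong to the members with the smallest p among those that rose and hold it.
Pdia6, chr12:17266339-17266638, plus strand: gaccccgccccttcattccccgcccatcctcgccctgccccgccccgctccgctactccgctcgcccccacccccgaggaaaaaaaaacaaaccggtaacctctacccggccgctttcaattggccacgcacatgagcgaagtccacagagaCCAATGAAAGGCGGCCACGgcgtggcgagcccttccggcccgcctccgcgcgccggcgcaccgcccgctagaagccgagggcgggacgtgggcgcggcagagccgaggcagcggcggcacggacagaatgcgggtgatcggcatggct
Hsp90b1, chr10:86705395-86705694, minus strand: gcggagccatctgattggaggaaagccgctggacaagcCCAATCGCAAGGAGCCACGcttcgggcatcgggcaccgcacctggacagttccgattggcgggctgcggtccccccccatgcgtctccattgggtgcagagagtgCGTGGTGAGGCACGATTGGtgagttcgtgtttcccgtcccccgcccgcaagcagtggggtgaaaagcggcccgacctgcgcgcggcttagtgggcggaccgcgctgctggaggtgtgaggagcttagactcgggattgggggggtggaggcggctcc
Canx, chr11:50325624-50325923, minus strand: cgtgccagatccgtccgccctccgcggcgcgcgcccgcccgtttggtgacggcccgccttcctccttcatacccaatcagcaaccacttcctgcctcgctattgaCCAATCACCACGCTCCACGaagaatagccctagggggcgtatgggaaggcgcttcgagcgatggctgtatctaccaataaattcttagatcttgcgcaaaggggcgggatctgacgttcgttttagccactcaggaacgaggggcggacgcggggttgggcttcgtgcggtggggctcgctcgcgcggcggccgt

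Most genes that supply amino acids rose too. Serine, glycine and proline are made from glycolytic and glutamate precursors, and the transcription factor ATF4 is known to drive several of these enzymes. Of 16 serine, one-carbon and proline synthesis genes, 11 rose and 2 fell, with a median log2 fold change of 0.97 (11 and 2 without AngII samples 1 and 5). Psat1, phosphoserine aminotransferase, rose 4.63-fold (log2 2.21 ± 0.33), Phgdh, the entry enzyme of serine synthesis, 1.99-fold (log2 0.99 ± 0.11), and Aldh18a1, the entry enzyme of proline synthesis from glutamate, 2.21-fold (log2 1.15 ± 0.16). Oat, ornithine aminotransferase, fell 1.51-fold (log2 -0.60 ± 0.11). Of 18 ATF4 target genes, 11 rose and 3 fell, with a median log2 fold change of 0.51 (11 and 2 without AngII samples 1 and 5). Asns, asparagine synthetase (ENSMUSG00000029752.12, chromosome 6, 7675169 to 7693254), stood at 1.96, 1.98, 2.1 and 1.97 CPM in the controls and at 23.5, 21.9, 6.44 and 11.7 CPM with AngII. The controls were nearly equal, every AngII sample was higher, and the log2 fold change was 2.98 ± 0.31 (adjusted p = 6.60e-06). Chac1, a glutathione-degrading enzyme, rose 3.05-fold (log2 1.61 ± 0.31) and Slc7a11, the cystine importer, rose 31.7-fold (log2 4.98 ± 1.12). Of 18 cytosolic aminoacyl-tRNA synthetases, 8 rose and 1 fell, with a median log2 fold change of 0.13 (6 and 0 without AngII samples 1 and 5; 5 and 0 with adipocyte score in the model; 6 and 3 with scaling by library size alone). The rises numbered 4 without control sample 2. Gars, glycyl-tRNA synthetase, rose 1.73-fold (log2 0.79 ± 0.14).

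Glycosaminoglycans are the long sugar chains of hyaluronan and proteoglycans. Of 32 genes for their synthesis, 15 rose and 1 fell, with a median log2 fold change of 0.45 (14 and 1 without AngII samples 1 and 5; 0 to 2 falls on leaving out any 1 library). Has1, a hyaluronan synthase (ENSMUSG00000003665.6, chromosome 17, 17843323 to 17855205), had 0.385, 1.38, 0.441 and 1.17 CPM in the controls and 29.4, 36.3, 33.2 and 20.3 CPM with AngII. All AngII samples were far above the controls, and the log2 fold change was 5.15 ± 0.54 (adjusted p = 6.39e-06). Hs2st1, a heparan sulphate sulphotransferase, rose 2.23-fold (log2 1.16 ± 0.11), Chst11, a chondroitin sulphotransferase, 2.51-fold (log2 1.33 ± 0.13), and Xylt1, which starts the chains on the core protein, 1.85-fold (log2 0.89 ± 0.11). Degradation genes moved less evenly. Over all genes 21.8% rose and 17.1% fell. Lysosomal genes rose more often than that, while the autophagy, proteasome, ribosome biogenesis and chaperone lists that follow were called at or below those shares over all 8 samples. Of 23 lysosomal enzyme and proton pump genes, 11 rose and 1 fell, with a median log2 fold change of 0.23 (11 and 1 without AngII samples 1 and 5; 1 to 2 falls on leaving out any 1 library). Lipa, lysosomal acid lipase, rose 2.13-fold (log2 1.09 ± 0.10), while Mitf, a transcription factor of lysosomal genes, fell 1.8-fold (log2 -0.85 ± 0.14). Macrophage markers, all 10 of which rose, were also higher with AngII, and their part in the lysosomal counts was not tested. Of 18 autophagy genes, 2 rose and 3 fell, with a median log2 fold change of -0.04 (2 and 5 without AngII samples 1 and 5; 2 and 6 with scaling by library size alone). Map1lc3a, an LC3 protein of the autophagosome, fell 1.59-fold (log2 -0.67 ± 0.09). Of 25 proteasome genes, 4 rose and 2 fell, with a median log2 fold change of -0.01 (3 and 2 without AngII samples 1 and 5; 1 and 2 with adipocyte score in the model; 1 and 5 with scaling by library size alone; 1 to 3 falls on leaving out any 1 library). The rises numbered 1 without AngII sample 2 or control sample 2 or 3 and 2 without AngII sample 1 or control sample 5. Of 22 ribosome biogenesis genes, 2 rose and 1 fell, with a median log2 fold change of 0.04 (7 and 0 without AngII samples 1 and 5; 2 and 6 with scaling by library size alone; 2 to 6 rises on leaving out any 1 library; 0 to 3 falls on leaving out any 1 library). Of 21 cytosolic and mitochondrial chaperone genes, 2 rose and 0 fell, with a median log2 fold change of 0.23 (10 and 0 without AngII samples 1 and 5; 9 and 0 with adipocyte score in the model; 1 to 6 rises on leaving out any 1 library).

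**Figure D2:**
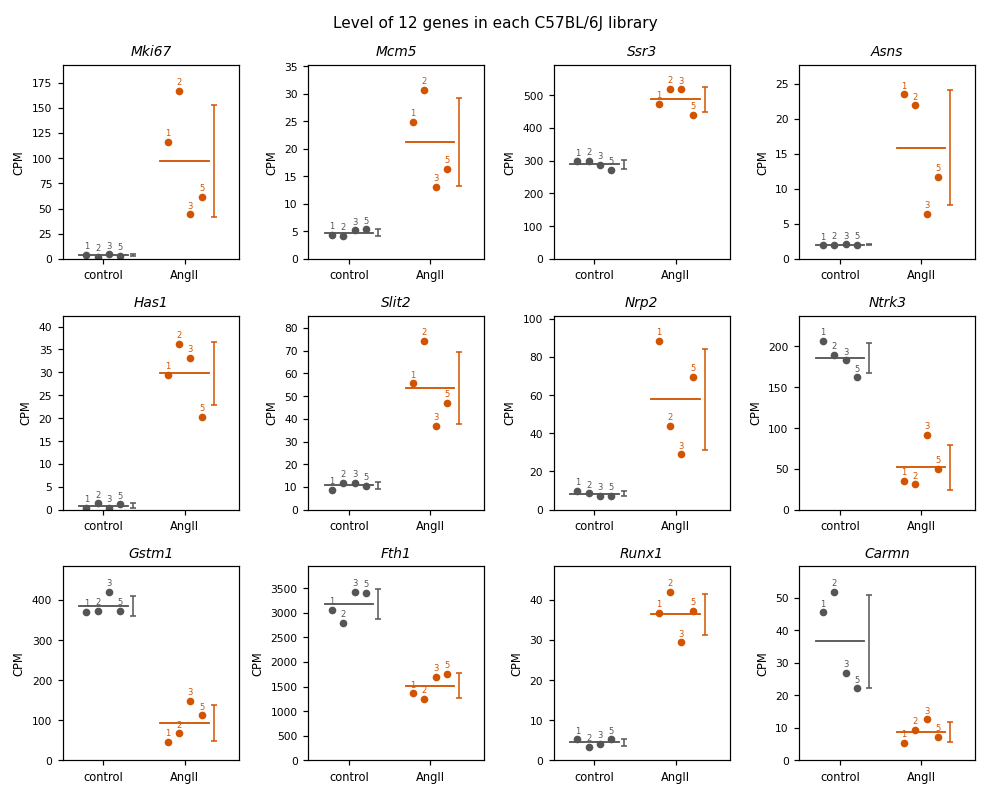
Level of 12 genes in each of the 8 C57BL/6J libraries in CPM on a linear axis from 0; numbers beside the points are the sample numbers, horizontal lines are group means and bars to the right of the points show ± 1 SD (n = 4). The groups do not overlap for any of the 12 genes, and AngII sample 3 is the AngII sample nearest to the controls for Mki67, Mcm5, Asns, Slit2, Nrp2, Ntrk3, Gstm1, Runx1 and Carmn.

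Growth factor genes rose more often than they fell. FGF and EGF family ligands bind receptor tyrosine kinases, and the MAP kinase pathway behind those receptors switches on its own inhibitors, the Sprouty, Spred and DUSP proteins. Of 21 FGF and EGF family genes, 9 rose and 2 fell, with a median log2 fold change of 0.20 (7 and 2 without AngII samples 1 and 5; 8 and 4 with scaling by library size alone; 2 to 4 falls on leaving out any 1 library). Fgf18, a ligand known from cartilage and lung development (ENSMUSG00000057967.12, chromosome 11, 33117430 to 33147400), had 1.59, 2.05, 2.41 and 3.32 CPM in the controls and 27.1, 30.4, 11.6 and 18.4 CPM with AngII. The groups did not overlap and the log2 fold change was 3.22 ± 0.42 (adjusted p = 3.12e-05). Fgf7, a ligand that fibroblasts make for epithelia, rose 2.25-fold (log2 1.17 ± 0.17) and Ereg, the EGF receptor ligand epiregulin, rose 3.76-fold (log2 1.91 ± 0.30), while Btc, the related ligand betacellulin, fell 3.48-fold (log2 -1.80 ± 0.28).  Of 20 MAP kinase feedback genes, 11 rose and 2 fell, with a median log2 fold change of 0.53 (9 and 1 without AngII samples 1 and 5; 8 and 0 with adipocyte score in the model; 4 and 2 with scaling by library size alone; 1 to 3 falls on leaving out any 1 library). The rises numbered 5 without AngII sample 2 or control sample 5, 6 without control sample 2 and 7 without control sample 3. Etv4, an ETS factor induced by FGF signals, rose 4.54-fold (log2 2.18 ± 0.39), Spry4 rose 1.97-fold (log2 0.98 ± 0.19) and Spred1 1.59-fold (log2 0.67 ± 0.10).

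Among developmental signalling pathways, 6 of 13 Hedgehog genes fell and 0 rose, while Wnt and YAP genes were called at shares nearer to those of all genes, 21.8% higher and 17.1% lower. Hedgehog ligands release the receptor Smoothened from inhibition by Patched and activate the GLI factors. Of 13 Hedgehog pathway genes, 0 rose and 6 fell, with a median log2 fold change of -0.21 (1 and 5 without AngII samples 1 and 5; 1 and 3 with adipocyte score in the model; 0 to 1 rises on leaving out any 1 library). Ihh, the ligand Indian hedgehog (ENSMUSG00000006538.12, chromosome 1, 74945315 to 74951672), fell from 13.8, 13.9, 9.04 and 12.1 CPM to 3.26, 4.09, 6.59 and 5.34 CPM, without overlap, a log2 fold change of -1.34 ± 0.20 (adjusted p = 0.000119). Gli1, a factor that Hedgehog signals induce, fell 2.18-fold (log2 -1.12 ± 0.21) and Gli2, the activator upstream of it, fell 1.56-fold (log2 -0.64 ± 0.15).  Wnt proteins signal through Frizzled receptors, with R-spondins as enhancers and Dickkopf and Naked proteins as inhibitors. Of 34 Wnt pathway genes, 10 rose and 5 fell, with a median log2 fold change of 0.39 (8 and 4 without AngII samples 1 and 5; 5 and 3 with adipocyte score in the model). Dkk2, a secreted inhibitor, rose 7.36-fold (log2 2.88 ± 0.5; 1.83 without AngII samples 1 and 5) and Rspo2, an enhancer, 22.3-fold (log2 4.48 ± 0.77; 5.17 without control sample 3), while Nkd1, a feedback inhibitor, fell 2.82-fold (log2 -1.49 ± 0.18) and Fzd2, a receptor, fell 1.62-fold (log2 -0.69 ± 0.11). Nkd1 held 147, 140, 138 and 146 CPM in the controls and 34.6, 36, 67.1 and 64.9 CPM with AngII, so every AngII sample was below every control. Of 21 YAP and TEAD pathway genes, which respond to stretch and stiffness, 6 rose and 3 fell, with a median log2 fold change of 0.16 (7 and 1 without AngII samples 1 and 5; 7 and 1 with adipocyte score in the model; 5 and 5 with scaling by library size alone). Nuak2, a kinase that YAP induces, rose 5.05-fold (log2 2.34 ± 0.25) and Tead3, a TEAD factor, fell 1.98-fold (log2 -0.99 ± 0.16).

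Axon guidance genes changed on both sides, with more rises than falls. Slits bind Robo receptors, semaphorins bind plexins and neuropilins, and netrins bind UNC5 and DCC receptors; in vessels they are known to steer endothelial and smooth muscle cells and nerves. Of 37 semaphorin, ephrin, slit and netrin genes, 16 rose and 8 fell, with a median log2 fold change of 0.29 (11 and 7 without AngII samples 1 and 5). Slit2, a Robo ligand (ENSMUSG00000031558.15, chromosome 5, 47983138 to 48307733), had 8.78, 11.9, 11.8 and 10.4 CPM in the controls and 55.6, 74.4, 37 and 47.1 CPM with AngII. No samples overlapped, and the log2 fold change was 2.32 ± 0.21 (adjusted p = 2.19e-06). Robo1, its receptor, rose 2.9-fold (log2 1.54 ± 0.18), from 3.95 ± 0.426 to 11.5 ± 2.25 CPM (SD, n = 4). Nrp2, a neuropilin that binds semaphorins and VEGF-C, rose 7.03-fold (log2 2.81 ± 0.30; 2.14 without AngII samples 1 and 5), from 9.9, 8.56, 7.14 and 7.22 CPM to 88.3, 43.9, 29 and 69.5 CPM, and its AngII samples, the lowest being sample 3, all lay above the controls. Among receptors that fell were Unc5c, a netrin receptor, by 2.67-fold (log2 -1.42 ± 0.25), and Plxnb1, a semaphorin receptor, by 2.09-fold (log2 -1.06 ± 0.14).

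Growth factors of nerves changed in both directions. Neurotrophins act through Trk receptors and the GDNF family through RET with GFRA co-receptors. Of 11 genes of these families, 6 rose and 4 fell, with a median log2 fold change of 0.54 (4 and 3 without AngII samples 1 and 5; 3 and 3 with adipocyte score in the model). Bdnf, brain-derived neurotrophic factor, rose 4.09-fold (log2 2.03 ± 0.32) and Gfra1, the GDNF co-receptor, 11.2-fold (log2 3.48 ± 0.31). In contrast Ntf3, neurotrophin 3, and Ntrk3, its receptor TrkC, fell together. Ntf3 went from 50.1, 45.8, 52.9 and 41.2 CPM to 11.2, 12, 22.2 and 14.7 CPM, and Ntrk3 from 207, 190, 183 and 162 CPM to 35.6, 30.9, 91.4 and 50.3 CPM. Neither overlapped, and the log2 fold changes were -1.66 ± 0.21 (adjusted p = 2.64e-05) and -1.83 ± 0.25 (adjusted p = 5.50e-05). Schwann cell and nerve markers summed to 152 to 304 CPM in the controls and to 273 to 346 CPM with AngII, ranges that overlap. Of the 9 tested, 2 rose and 1 fell, 2 and 1 without AngII samples 1 and 5, and 0 and 1 with adipocyte score in the model. Over all 8 samples those shares were near those of all genes, 21.8% and 17.1%.

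Vessel growth and lipid mediator genes rose in part. Of 19 angiogenic ligands and receptors, 8 rose and 3 fell, with a median log2 fold change of 0.49 (6 and 2 without AngII samples 1 and 5; 6 and 1 with adipocyte score in the model; 7 and 6 with scaling by library size alone; 2 to 5 falls on leaving out any 1 library). Esm1, a proteoglycan of endothelial tip cells (ENSMUSG00000042379.8, chromosome 13, 113209659 to 113218098), went from 2.85, 2.74, 4.81 and 2.53 CPM to 76.6, 143, 60.3 and 28.8 CPM. Control sample 3 was the highest control and AngII sample 5 the lowest AngII sample, still far apart, with a log2 fold change of 4.58 ± 0.48 (adjusted p = 6.80e-06). Apln, the peptide apelin, rose 8.58-fold (log2 3.10 ± 0.59; 2.46 without AngII samples 1 and 5), its receptor gene Aplnr 33.2-fold (log2 5.05 ± 1.02; 5.75 without control sample 1 and 3.81 without AngII samples 1 and 5), and Pgf, placental growth factor, 4.75-fold (log2 2.25 ± 0.34). Endothelial markers as a whole stood at 958 to 1207 CPM in the controls and at 755 to 976 CPM with AngII, ranges that overlap, with 2 of 12 rising and 2 falling (1 and 0 without AngII samples 1 and 5). Over all 8 samples those shares were near the 21.8% and 17.1% of all genes. Of 17 lysophospholipid and sphingosine phosphate signalling genes, 9 rose and 2 fell, with a median log2 fold change of 0.77 (7 and 1 without AngII samples 1 and 5; 1 to 2 falls on leaving out any 1 library). S1pr3, a sphingosine 1-phosphate receptor of smooth muscle, rose 8.65-fold (log2 3.11 ± 0.43; 2.48 without AngII samples 1 and 5) and Sgpl1, the lyase that ends the signal, 2.32-fold (log2 1.21 ± 0.14).

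Phosphodiesterase genes moved in both directions, with more rises than falls. Phosphodiesterases break down cAMP and cGMP, and PDE5A, the target of sildenafil, is 1 of the forms that act on cGMP in smooth muscle. Of 16 phosphodiesterase genes, 9 rose and 3 fell, with a median log2 fold change of 0.71 (7 and 2 without AngII samples 1 and 5). Pde5a fell 2.12-fold (log2 -1.09 ± 0.21), from 355, 339, 336 and 290 CPM to 92.8, 125, 244 and 160 CPM. AngII sample 3 was the AngII sample nearest to the controls and below all of them. Pde4a, a cAMP enzyme, fell 1.46-fold (log2 -0.54 ± 0.13). Pde3b rose 3.13-fold (log2 1.65 ± 0.21), Pde7b 2.48-fold (log2 1.31 ± 0.19) and Pde10a 6.76-fold (log2 2.76 ± 0.45). Pde3b held 27.1, 23.3, 21.6 and 21.8 CPM in the controls and 101, 60.1, 50 and 82.7 CPM with AngII, without overlap and highest in AngII samples 1 and 5. Pde3b is known from adipocytes, where insulin uses it to restrain fat breakdown. Without AngII samples 1 and 5 its log2 fold change was 1.22 and still passed (adjusted p = 0.0003). AngII sample 2, which stays in that fit, had an adipocyte score of 3.95, against at most 3.54 in the controls. The part of adipocytes in the Pde3b rise was not tested. Of 19 purine receptors and ectonucleotidases, 7 rose and 3 fell, with a median log2 fold change of 0.49 (2 and 2 without AngII samples 1 and 5; 4 and 2 with adipocyte score in the model). Adora2b, a low-affinity adenosine receptor, rose 4.5-fold (log2 2.17 ± 0.27) and Entpd1, the ectonucleotidase CD39, fell 1.79-fold (log2 -0.84 ± 0.15).

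Retinoic acid is made by ALDH1A enzymes from retinol, which RBP proteins carry. Of 17 retinoid genes, 6 rose and 5 fell, with a median log2 fold change of 0.18 (4 and 5 without AngII samples 1 and 5). The shares over all genes were 21.8% and 17.1%. Aldh1a2, a retinaldehyde dehydrogenase, rose 9.54-fold (log2 3.25 ± 0.62; 1.93 without AngII samples 1 and 5), while the carrier Rbp4 fell 1.74-fold (log2 -0.80 ± 0.16) and Rarres2, the retinoid-responsive chemoattractant chemerin, 2.22-fold (log2 -1.15 ± 0.14). Of 17 coagulation genes, 8 rose and 1 fell, with a median log2 fold change of 0.55 (7 and 1 without AngII samples 1 and 5; 0 to 2 falls on leaving out any 1 library). Tfpi2, a protease inhibitor, rose 14.8-fold (log2 3.89 ± 0.54) and F2r, the thrombin receptor PAR1, 1.71-fold (log2 0.77 ± 0.09). Of 10 type 2 immune genes, 5 rose and 0 fell, with a median log2 fold change of 1.33 (4 and 2 without AngII samples 1 and 5; 0 to 1 falls on leaving out any 1 library). Il4ra and Il13ra1, chains of the receptor for interleukins 4 and 13, rose 3.54-fold (log2 1.82 ± 0.22) and 2.08-fold (log2 1.06 ± 0.09). Macrophage markers were higher with AngII too, and their part in the type 2 counts was not tested. Il33, an alarmin cytokine of stromal cells, rose 3.6-fold (log2 1.85 ± 0.36), from 27.1, 17.7, 31.8 and 26.5 CPM to 85, 104, 62.9 and 120 CPM, and the groups did not overlap.

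Transcription factors that set mesenchymal identity rose more often than they fell. Of 29 mesenchymal and developmental factors, 13 rose and 5 fell, with a median log2 fold change of 0.48 (8 and 4 without AngII samples 1 and 5; 8 and 3 with adipocyte score in the model). Runx1, a factor of blood and skeletal progenitors (ENSMUSG00000022952.16, chromosome 16, 92601466 to 92826149), had 5.31, 3.47, 4.15 and 5.27 CPM in the controls and 36.8, 42, 29.4 and 37.2 CPM with AngII. The samples of each group lay close together and far from the other group, and the log2 fold change was 3.0 ± 0.23 (adjusted p = 6.46e-07). Snai1, known from epithelial to mesenchymal transition, rose 7.22-fold (log2 2.85 ± 0.29) and Sox9, the cartilage factor, 3.49-fold (log2 1.80 ± 0.35), while Foxf1 and Osr1, factors of developing mesenchyme, fell 3.94-fold (log2 -1.98 ± 0.30) and 2.57-fold (log2 -1.36 ± 0.16). Hox genes keep the position along the body axis. Of 23 Hox genes, 3 rose and 8 fell, with a median log2 fold change of -0.55 (2 and 8 without AngII samples 1 and 5; 1 and 8 with adipocyte score in the model). Hoxa3 fell 2.12-fold (log2 -1.08 ± 0.12), from 48.9, 49.1, 44.1 and 36.8 CPM to 18.1, 19.2, 23.2 and 24 CPM, and Hoxb5 fell 2.09-fold (log2 -1.06 ± 0.13). Hoxc8, from another cluster, rose 3.02-fold (log2 1.60 ± 0.28), from 2.97, 2.59, 3.11 and 3.3 CPM to 14.9, 8.75, 5.45 and 7.12 CPM, highest in AngII sample 1. Neither gene's groups overlapped.

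Genomic imprinting silences the copy from a given parent of a gene, and many imprinted genes act in fetal growth. Of 19 imprinted genes, 7 rose and 3 fell, with a median log2 fold change of 0.55 (5 and 2 without AngII samples 1 and 5; 5 and 1 with adipocyte score in the model; 1 to 3 falls on leaving out any 1 library). H19, a fetal non-coding RNA that hosts a microRNA (ENSMUSG00000000031.15, chromosome 7, 142575529 to 142578143), stood at 0.536, 0.734, 1.16 and 1.09 CPM in the controls and at 39.4, 52.8, 14.6 and 68.3 CPM with AngII. The groups did not overlap, and the log2 fold change was 5.64 ± 0.62 (adjusted p = 8.65e-06). Igf2r, the receptor that clears IGF2, rose 2.21-fold (log2 1.15 ± 0.10) and Grb10, an adaptor that restrains insulin signals, 2.58-fold (log2 1.37 ± 0.16), while Peg3, a zinc finger protein, fell 1.36-fold (log2 -0.45 ± 0.09). Of 16 named long non-coding RNAs, 1 rose and 5 fell, with a median log2 fold change of -0.30 (1 and 2 without AngII samples 1 and 5; 1 and 3 with adipocyte score in the model). The falls numbered 3 without AngII sample 1 or 2 or control sample 2 or 5. Carmn, the host transcript of microRNAs 143 and 145 and a regulator of smooth muscle identity (ENSMUSG00000097324.8, chromosome 18, 61649625 to 61665537), fell from 45.5, 51.9, 27 and 22.2 CPM to 5.35, 9.46, 12.6 and 7.27 CPM. Every AngII sample was below every control, and the log2 fold change was -2.08 ± 0.31 (adjusted p = 0.000103). The smooth muscle marker sums given above were lower in the same samples, and their part in this fall was not tested.

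Most non-muscle cytoskeleton genes rose, while junction genes rose and fell at shares near those of all genes, 21.8% and 17.1%. Of 24 non-muscle cytoskeleton genes, 15 rose and 2 fell, with a median log2 fold change of 0.67 (15 and 1 without AngII samples 1 and 5). Fscn1, the actin bundler fascin, rose 7.22-fold (log2 2.85 ± 0.23), from 4.64, 3.52, 4.65 and 3.5 CPM to 37.8, 26.6, 24.5 and 28.9 CPM, with no overlap. Tubb3, a beta-tubulin known from neurons, rose 13.5-fold (log2 3.76 ± 0.75) and Tpm4, a non-muscle tropomyosin, 3.17-fold (log2 1.66 ± 0.15), while Myh10, a non-muscle myosin heavy chain, fell 1.81-fold (log2 -0.86 ± 0.13). Of 19 S100 and annexin genes, 9 rose and 2 fell, with a median log2 fold change of 0.26 (8 and 3 without AngII samples 1 and 5). Anxa8, a membrane-binding annexin, rose 12.6-fold (log2 3.65 ± 0.54). Of 25 cell-cell junction genes, 7 rose and 5 fell, with a median log2 fold change of 0.02 (7 and 4 without AngII samples 1 and 5). Cdh11, the cadherin of fibroblasts and osteoblasts (ENSMUSG00000031673.6, chromosome 8, 102632095 to 102785642), rose from 25.1, 24.2, 28.2 and 21.5 CPM to 110, 121, 109 and 154 CPM. Even the lowest AngII sample was far above the highest control, with a log2 fold change of 2.32 ± 0.16 (adjusted p = 6.41e-07). Cdh2, N-cadherin, rose 4.04-fold (log2 2.02 ± 0.21) and Dsp, the desmosomal linker desmoplakin, fell 2.2-fold (log2 -1.14 ± 0.21). Pkp1, a desmosomal plakophilin, had 3 counts over the 4 controls and 811 over the AngII samples, a ratio of 260 (95% exact interval 88.6 to 1263, counting error only). Of 7 connexins and pannexins, 2 rose and 1 fell, with a median log2 fold change of 0.47 (2 and 1 without AngII samples 1 and 5; 1 to 2 rises on leaving out any 1 library; 1 to 2 falls on leaving out any 1 library). Panx1, a channel that releases ATP, rose 8.14-fold (log2 3.02 ± 0.37; 2.41 without AngII samples 1 and 5) and Gjc1, connexin 45, fell 1.84-fold (log2 -0.88 ± 0.12).

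Most metal genes rose, and glutathione genes rose more often than they fell, but Gstm1 and Fth1, both abundant in the controls, fell. Glutathione S-transferases and NQO1 are classical targets of the transcription factor NRF2, and ferritin stores iron. Of 20 glutathione and thioredoxin genes, 8 rose and 3 fell, with a median log2 fold change of 0.36 (7 and 4 without AngII samples 1 and 5; 5 and 4 with adipocyte score in the model). Gstm1, a glutathione S-transferase (ENSMUSG00000058135.12, chromosome 3, 108012255 to 108017973), fell from 370, 373, 421 and 373 CPM to 46, 67.8, 148 and 113 CPM. All AngII samples were below all controls, and the log2 fold change was -2.03 ± 0.25 (adjusted p = 2.12e-05). Gstm2 fell 1.66-fold (log2 -0.74 ± 0.08) and Nqo1, a quinone reductase, 2.06-fold (log2 -1.05 ± 0.13). Gpx3, a secreted glutathione peroxidase that is also abundant, rose 3.41-fold (log2 1.77 ± 0.60; 1.11 without AngII sample 5 and 0.78 without AngII samples 1 and 5), with overlap and with AngII sample 3 below every control, and its call was lost on leaving out any of 5 libraries. Hmox1, the haem-degrading enzyme also counted as an NRF2 target, rose 8.62-fold (log2 3.11 ± 0.42; 2.24 without AngII sample 3), from 9, 8.74, 9.68 and 9.03 CPM to 43.4, 36.9, 186 and 47.5 CPM, with AngII sample 3 well above the others. Of 16 metallothionein and metal transport genes, 12 rose and 1 fell, with a median log2 fold change of 0.84 (8 and 1 without AngII samples 1 and 5). Lcn2, the iron scavenger lipocalin 2, rose 34.7-fold (log2 5.12 ± 0.81; 4.30 without AngII sample 1, 5.98 without control sample 3 and 3.61 without AngII samples 1 and 5), Steap4, a metal reductase, 4.19-fold (log2 2.07 ± 0.31; 1.13 without AngII samples 1 and 5), and Mt2, a metallothionein, 3.95-fold (log2 1.98 ± 0.28). Fth1, the ferritin heavy chain (ENSMUSG00000024661.6, chromosome 19, 9980598 to 9985098), fell from 3061, 2794, 3421 and 3403 CPM to 1359, 1247, 1702 and 1754 CPM. The groups did not overlap, with a log2 fold change of -1.06 ± 0.12 (adjusted p = 7.82e-06). Ftl1, the ferritin light chain, rose instead, 1.65-fold (log2 0.72 ± 0.24), from 221 ± 54.8 to 365 ± 76.6 CPM (SD, n = 4), without overlap, and its call was lost on leaving out any of 3 libraries. Gstm1 and Gstm2 are close paralogs and Fth1 and Ftl1 have processed copies in the genome, so how their reads were split is uncertain.

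Hypoxia and glucocorticoid response genes rose and fell at shares near those of all genes, 21.8% and 17.1%. Of 18 hypoxia response genes, 5 rose and 4 fell, with a median log2 fold change of 0.14 (4 and 3 without AngII samples 1 and 5; 4 and 1 with adipocyte score in the model). Hif1a, the oxygen-regulated factor, rose 1.76-fold (log2 0.81 ± 0.09) while Epas1, its paralog HIF-2 alpha, fell 1.56-fold (log2 -0.64 ± 0.18), and P4ha1, a collagen prolyl hydroxylase that hypoxia induces, rose 2.06-fold (log2 1.04 ± 0.16). Of 16 glucocorticoid response genes, 3 rose and 3 fell, with a median log2 fold change of 0.09 (4 and 3 without AngII samples 1 and 5; 4 and 1 with adipocyte score in the model; 2 to 5 rises on leaving out any 1 library). Klf15, a glucocorticoid-induced factor of smooth muscle and heart, fell 2.67-fold (log2 -1.42 ± 0.30), from 58.1 ± 19 to 21.7 ± 7.85 CPM (SD, n = 4).

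For the citric acid cycle and fatty acid oxidation lists the direction depended on which AngII samples were included, and for fatty acid synthesis the number of rises did. Of 22 genes of the citric acid cycle and pyruvate entry, 4 rose and 1 fell, with a median log2 fold change of 0.29 (1 and 5 without AngII samples 1 and 5; 1 and 2 with adipocyte score in the model; 1 and 2 with scaling by library size alone; 1 to 4 falls on leaving out any 1 library). The rises numbered 1 without control sample 2, 3 or 5, 2 without AngII sample 1 or control sample 1 and 9 without AngII sample 3. The median without AngII samples 1 and 5 was -0.17. Over all genes 21.8% rose and 17.1% fell. Of 22 fatty acid oxidation genes, 6 rose and 0 fell, with a median log2 fold change of 0.53 (0 and 3 without AngII samples 1 and 5; 0 and 7 with adipocyte score in the model). The rises numbered 1 without AngII sample 1, 3 without control sample 5, 10 without AngII sample 2 and 11 without AngII sample 3. The median without AngII samples 1 and 5 was -0.19. Of 14 fatty acid synthesis genes, 8 rose and 1 fell, with a median log2 fold change of 0.69 (2 and 1 without AngII samples 1 and 5; 1 and 2 with adipocyte score in the model). The rises numbered 4 without AngII sample 1. Without AngII samples 1 and 5 the median was 0.25. The mean level of the fatty acid oxidation list was 6.92, 5.19, 5.08 and 5.88 log2 CPM in AngII samples 1, 2, 3 and 5 and 5.10 to 5.47 log2 CPM in the controls, so AngII sample 2 lay within the control range and AngII sample 3 just below it.

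Adipocyte genes showed the same order of samples. The adipocyte score, the mean log2 CPM of the 12 pan-adipocyte and 9 brown adipocyte markers tested, was 6.78, 3.95, 2.84 and 5.52 in AngII samples 1, 2, 3 and 5 and 3.54, 2.18, 2.12 and 1.89 in the controls. Of 12 pan-adipocyte markers 12 rose, 0 without AngII samples 1 and 5, and of 9 brown adipocyte markers tested 8 rose, 1 without them. The brown marker rises numbered 2 without AngII sample 1 and 5 without control sample 2, 3 or 5. Ucp1, the uncoupling protein of brown fat, held 21.2, 2.18, 1.1 and 1.49 CPM in the controls and 549, 26.3, 12.4 and 75.4 CPM with AngII. The groups overlap, AngII sample 1 stands far above all others, and its call (log2 fold change 4.66 ± 1.38, adjusted p = 0.0144) was lost without AngII sample 1; the log2 fold change was 2.57 without AngII sample 1, 6.69 without control sample 1 and 1.55 without AngII samples 1 and 5. Adipoq, adiponectin, went from 19, 7.75, 5.95 and 4.12 CPM to 312, 55, 10.6 and 214 CPM, and Cpt1b, the muscle and brown fat carnitine transferase, from 8.13, 0.518, 0.662 and 2.31 CPM to 106, 7.43, 4.21 and 14.6 CPM. The groups overlap for both, and the call of Cpt1b was also lost without AngII sample 1. The log2 fold change of Adipoq was 4.0 ± 0.89, 3.37 without AngII sample 1, 4.64 without control sample 1 and 1.82 without AngII samples 1 and 5, and that of Cpt1b 3.49 ± 1.04, 1.60 without AngII sample 1, 4.80 without control sample 1 and 0.98 without AngII samples 1 and 5. Cpt1a, the form used by most other tissues, did not pass the test (169, 145, 197 and 147 CPM and 135, 150, 145 and 168 CPM, log2 fold change -0.14 ± 0.10, adjusted p = 0.295). Fasn, fatty acid synthase, and Scd1, stearoyl-CoA desaturase, rose 6.01-fold (log2 2.59 ± 0.64) and 10.4-fold (log2 3.38 ± 0.71) over all 8 samples. Leaving out AngII samples 1 and 5, their log2 fold changes went from 2.59 to 0.84 and from 3.38 to 1.62, and neither passed. Pcx, pyruvate carboxylase, kept its call without them (log2 fold change 2.76, then 1.32).

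**Figure D3:**
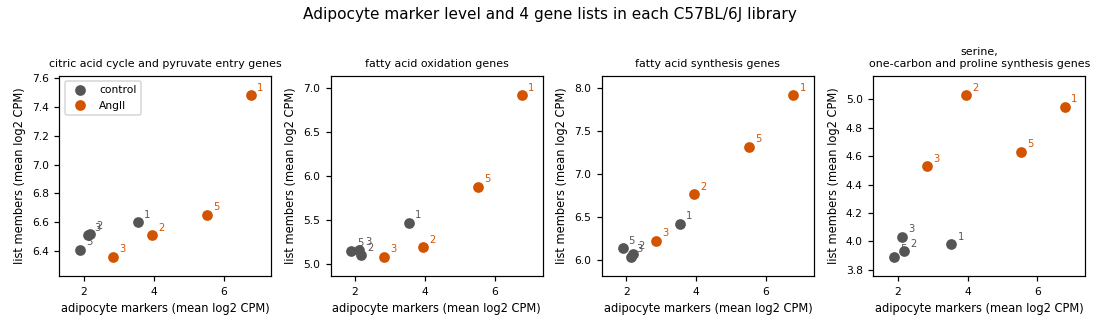
Mean log2 CPM of the members of 4 lists (vertical axis) against the adipocyte score, the mean log2 CPM of adipocyte markers (horizontal axis), in the 8 C57BL/6J libraries, numbered by sample; grey control, orange AngII. For the citric acid cycle, fatty acid oxidation and fatty acid synthesis lists AngII samples 1 and 5 lie highest, whereas for serine, one-carbon and proline synthesis all AngII samples (4.53 to 5.03) lie above all controls (3.89 to 4.03).

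Glycolysis turns glucose to pyruvate and lactate, and the mevalonate pathway makes cholesterol. Of 21 glycolysis genes, 7 rose and 3 fell, with a median log2 fold change of 0.22 (5 and 3 without AngII samples 1 and 5; 4 and 3 with adipocyte score in the model). The shares over all genes were 21.8% and 17.1%. Ldha, lactate dehydrogenase A, rose 2.04-fold (log2 1.03 ± 0.19), Pgk1, phosphoglycerate kinase, 1.84-fold (log2 0.88 ± 0.15), and Slc16a1, the lactate transporter MCT1, 7.16-fold (log2 2.84 ± 0.45; 2.23 without AngII sample 1 and 1.70 without AngII samples 1 and 5), while Pfkm, the muscle form of phosphofructokinase, fell 1.71-fold (log2 -0.77 ± 0.11). Of 8 pentose phosphate genes, 3 rose and 0 fell, with a median log2 fold change of 0.26 (3 and 0 without AngII samples 1 and 5). Of 23 cholesterol synthesis and uptake genes, 9 rose and 1 fell, with a median log2 fold change of 0.42 (12 and 0 without AngII samples 1 and 5; 0 to 1 falls on leaving out any 1 library). Cyp51, a sterol demethylase of the pathway, rose 2.37-fold (log2 1.25 ± 0.24), and its groups overlapped. Of 12 genes encoded in mitochondrial DNA, 0 rose and 0 fell, with a median log2 fold change of 0.02 (0 and 0 without AngII samples 1 and 5).

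Markers of other cell types varied with the groups as follows, where over all genes 21.8% rose and 17.1% fell. Lymphatic endothelial markers summed to 51.4 to 76.9 CPM in the controls and 88.8 to 187 CPM with AngII, with 3 of 6 rising, 1 without AngII samples 1 and 5 and 6 without AngII sample 3. Neutrophil and mast cell markers summed to 14.2 to 44.3 CPM and 25.8 to 109 CPM, with 5 of 11 rising and 0 without AngII samples 1 and 5. T and NK cell markers were low, at 2.42 to 5.69 CPM and 4.71 to 14.5 CPM. Skeletal muscle markers were low too, at 14.5 to 19.2 CPM in the controls and 5.09 to 13.3 CPM with AngII. Of 7 tested, 0 rose and 1 fell, also without AngII samples 1 and 5. Cardiac muscle markers were at 78.4 to 101 CPM in the controls, 272 CPM in AngII sample 1 and 65.5 to 89.5 CPM in the other AngII samples. Adventitial fibroblast markers were at 3665 to 4135 CPM and 4051 to 5943 CPM, with 4 of 10 rising and 2 falling (3 and 2 without AngII samples 1 and 5; 3 and 0 with adipocyte score in the model). None of 7 red blood cell or 10 B and plasma cell markers was called over all 8 samples. Without AngII samples 1 and 5, 4 red blood cell markers fell (median log2 fold change -2.94, against -0.54 over all 8) and still no B and plasma cell marker was called.

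The AngII effect was compared with that in 129S6/SvEvTac by the difference of the effects, C57BL/6J minus 129S6/SvEvTac. In 129S6/SvEvTac itself 12.2% of genes were called, 7.71% higher and 4.47% lower. Of all genes, 1706 passed the test of the difference, 9.96%, 914 (5.34%) with a higher and 792 (4.62%) with a lower effect in C57BL/6J. That count was 2990 without C57BL/6J AngII sample 3, 1039 without 129S6/SvEvTac control sample 2 and 1076 without 129S6/SvEvTac AngII sample 4. Of the 167 genes named in the text, 90 passed. Genes were named mainly by the size or p of their effect in C57BL/6J, and some by the difference itself. The share that passed and its balance of directions therefore cannot be set against those of all genes. The 24 that passed under every alternative setting and omission tried are described here. Guidance and neurotrophic genes were among them. Over the whole lists, 6 of 37 guidance genes had a higher and 3 a lower effect in C57BL/6J. Of 11 neurotrophin genes, 2 had a higher and 2 a lower effect. Slit2 had a difference of 1.90 ± 0.29 (SE, adjusted p = 0.00192), Nrp2 one of 2.23 ± 0.40 (adjusted p = 0.00462) and Gfra1 one of 3.71 ± 0.42 (adjusted p = 0.000429), the Gfra1 log2 fold change being -0.23 ± 0.29 in 129S6/SvEvTac. Of the 32 glycosaminoglycan synthesis genes 7 had a higher and 3 a lower effect in C57BL/6J, and those in the set described here differed by 0.95 ± 0.15 for Xylt1, 0.96 ± 0.16 for Hs2st1 and 1.12 ± 0.18 for Chst11. The factors Runx1 and Snai1 differed by 2.30 ± 0.30 and 2.42 ± 0.39, Cdh11 by 1.57 ± 0.22, Fscn1 by 2.11 ± 0.31 and H19 by 4.22 ± 0.76.

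Fgf7 differed by 1.28 ± 0.23, the Wnt inhibitor Dkk2 by 3.29 ± 0.68, the adenosine receptor Adora2b by 2.61 ± 0.38, the receptor chain Il13ra1 by 0.88 ± 0.12 and the chemokine Ccl7 by 4.11 ± 0.71. Casp8 differed by 0.76 ± 0.13, Eda2r by 1.48 ± 0.25 and Prss35, a serine protease-like secreted protein, by 5.08 ± 0.59 (adjusted p = 0.000546). For some of these genes the controls already differed. Prss35 went from 0.309 to 5.03 CPM in C57BL/6J and from 3.03 to 1.45 CPM in 129S6/SvEvTac. Dkk2 went from 0.667 to 4.91 CPM and from 3.13 to 2.34 CPM. Control means were closer for Ccl7 (0.915 and 1.03 CPM) and Eda2r (3.34 and 3.39 CPM). The part of the control levels was not tested. For 3 genes the effects ran in opposite directions, each passing the test in both strains. Ihh had a log2 fold change of -1.34 ± 0.20 in C57BL/6J and 1.46 ± 0.20 in 129S6/SvEvTac (difference -2.80 ± 0.29, adjusted p = 0.000224). Smad6, an inhibitor of bone morphogenetic protein signals, had -1.45 ± 0.15 and 0.68 ± 0.14 (difference -2.13 ± 0.20, adjusted p = 0.000116), and Rbp4 had -0.80 ± 0.16 and 0.76 ± 0.15 (difference -1.56 ± 0.22, adjusted p = 0.00117). Slc25a34, a mitochondrial carrier family member, fell in C57BL/6J (-2.0 ± 0.21), with a difference of -2.36 ± 0.29. Its mean went from 51.3 to 12.8 CPM in C57BL/6J and from only 4.0 to 5.11 CPM in 129S6/SvEvTac. Olfr224, an olfactory receptor gene, fell in C57BL/6J (-2.54 ± 0.37), with a difference of -2.75 ± 0.5. The naming rule by size of difference also gave Il6, Arg1, Spp1, Cxcl14, Bub1b and Coch, and each lost its call under at least 1 alternative or omission. Arg1 differed by 8.70 ± 2.15, Spp1, the matrix protein osteopontin, by 5.61 ± 1.03, Cxcl14, a chemokine, by 4.05 ± 0.92, Bub1b, a spindle checkpoint kinase, by -3.51 ± 1.02 and Coch, the matrix protein cochlin, by -2.35 ± 0.63. Il6, interleukin 6, had the largest fitted difference of these (adjusted p = 0.0204), but its size is not given because the C57BL/6J controls held 0 counts, against 4.02, 16.3, 14.5 and 7.61 CPM with AngII. The sizes for Bub1b and Arg1 also rest on group means near 0. Bub1b went from 2.62 to 16.3 CPM in C57BL/6J and from 0.0376 to 3.09 CPM in 129S6/SvEvTac, higher with AngII in both strains. Arg1 went from 0.11 to 9.03 CPM in C57BL/6J and from 1.03 to 0.162 CPM in 129S6/SvEvTac.

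**Figure D4:**
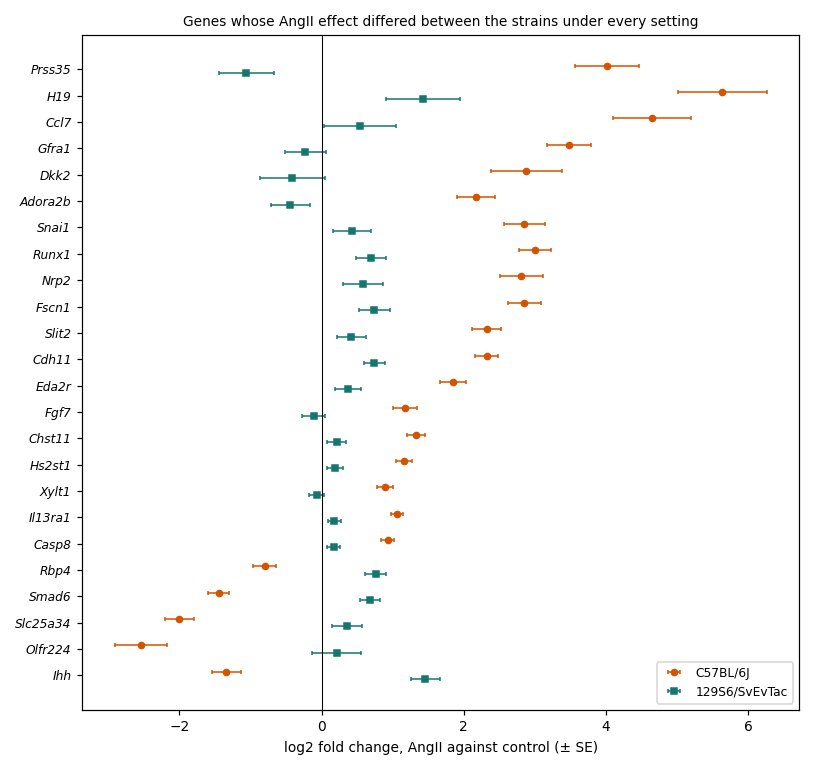
Log2 fold change of AngII against control (± SE, n = 4 per group) in C57BL/6J (orange circles) and 129S6/SvEvTac (green squares) for the 24 named genes whose difference of effects passed under every setting tried, sorted by the difference. The effect in C57BL/6J is higher for 19 genes and lower for Rbp4, Smad6, Slc25a34, Olfr224 and Ihh. Genes were named mainly by their effect in C57BL/6J or by the difference itself, so this balance follows in part from the choice.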

How the data were processed

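Total RNA from whole descending thoracic aorta was sequenced in 16 libraries, 4 per strain and treatment. The deposited values are estimated counts per gene, already whole numbers; per the labels' protocols the authors aligned reads to GRCm38 with HISAT2 and estimated abundance with StringTie on a Gencode annotation, and the submitters' processing notes name DESeq2 1.26.0 and R 3.6.2 with no role. How counts were derived, strand and the Gencode release: not given in the sources used here. Names and positions come from GENCODE M21. Gene IDs without a matched name (0.033% to 0.0396% of counts) were kept in the fit.

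Genes were filtered with filterByExpr (minimum count 10), scaled by TMM and fitted with edgeR 4.0.16 (R 4.3.3), quasi-likelihood, robust, 1 mean per group over all 16 libraries, without covariates; p-values were Benjamini-Hochberg adjusted over all genes tested, with a threshold of 0.05. CPM use the TMM-scaled library sizes. The fit was also run on simulated counts in which only a small share of genes changed. That run does not test shifts as broad as those found here. Alternatives used limma 3.58.1, DESeq2 1.42.0, other scalings and filters, the 8 C57BL/6J libraries alone, a replicate block, the adipocyte score as a covariate and left-out libraries. The gene lists, and the genes named from them, were chosen with earlier results of these data known. Per list, the naming rule took the 4 called members with the smallest p, the 2 largest rises and falls and the first 3 members; over all genes, the 12 largest rises and falls whose groups did not overlap and whose higher mean reached 5 CPM, and the 6 largest differences between strains in each direction. Among the genes so named, those in the text were picked with their stability known; Prc1 and Canx were added for their promoters. A few named genes are not reported here.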

Additional observations from a re-analysis of the deposited data

Results flagged for a closer look

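Of 366 groups of 4 values checked, 25 held a sample whose distance from its nearest neighbour, divided by the range of the group, was above Dixon's 95% critical value; chance gives about 1 in 20. Among the AngII samples, sample 1 stood apart for Ucp1 (549 CPM), Cpt1b (106 CPM) and the summed cardiac muscle markers (272 CPM), sample 2 for Olr1 (22.3 CPM) and Pde4a (33.1 CPM), and sample 3 for Inmt (37.9 CPM) and Hmox1 (186 CPM). Control sample 1 stood apart for Canx (376 CPM), Osr1 (232 CPM), Fasn (174 CPM), Pcx (21.1 CPM) and Ucp1 (21.2 CPM), and control sample 2 for Rrm2 (2.44 CPM), Kdelr2 (106 CPM), Ldha (156 CPM) and the summed Schwann cell and nerve markers (152 CPM). Control sample 3 stood apart for Olr1 (0.18 CPM), Asns (2.1 CPM), Esm1 (4.81 CPM), Il4ra (37.3 CPM), Panx1 (1.26 CPM), Gstm1 (421 CPM) and the summed red blood cell markers (790 CPM), and control sample 5 for Etv4 (1.35 CPM) and Pkp1 (0.0603 CPM).

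The AngII effect in C57BL/6J minus that in 129S6/SvEvTac, on the log2 scale and tested as an interaction, was 5.08 for Prss35, 4.22 for H19, 4.11 for Ccl7, 3.71 for Gfra1, 3.29 for Dkk2, 2.61 for Adora2b, 2.42 for Snai1, 2.30 for Runx1, 2.23 for Nrp2 and 2.11 for Fscn1. It was 1.90 for Slit2, 1.57 for Cdh11, 1.48 for Eda2r, 1.28 for Fgf7, 1.12 for Chst11, 0.96 for Hs2st1, 0.95 for Xylt1, 0.88 for Il13ra1 and 0.76 for Casp8. It was -1.56 for Rbp4, -2.13 for Smad6, -2.36 for Slc25a34, -2.75 for Olfr224 and -2.80 for Ihh.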

How the results depend on the processing

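The 6664 calls in C57BL/6J stayed within 1.5 times under every alternative, from 4582 with the adipocyte score as a covariate to 7331 with DESeq2, and from 5740 to 7173 on leaving out 1 library. Without AngII samples 1 and 5 they numbered 5374, and scaling by library size alone gave 7017 calls, 45.4% of them higher. Of the 165 named genes that passed, 155 passed under every alternative and 160 under every single omission. These genes were picked with their stability known, so those counts do not measure how stable the calls are in general. Of all 6664 calls, 4926 held under every omission of 1 C57BL/6J library. Fasn turned to a log2 fold change of -0.05 with the adipocyte score as a covariate, and the cause was not tested. The 1706 differences between the strains depended more on the setting: 2685 with DESeq2 (1532 higher), 2670 with limma voom (1303 lower), 1122 with the covariate (510 lower), and 1027 without AngII samples 1 and 5 (542 higher, 485 lower); the cause was not tested. Scaling by library size alone moved the higher share of these differences from 53.6% to 65.2%. On leaving out 1 library of either strain they ranged from 1039 to 2990, with 559 to 1646 higher and 446 to 1344 lower. Of the 90 named genes with a difference, 24 kept it under every alternative and omission. Same-numbered AngII and control samples of C57BL/6J had deviations correlated at 0.145, 0.042, -0.06 and -0.028. Samples with different numbers had -0.108 to 0.086, so 0.145 was above all of these. Whether replicate numbers pair the samples stays undecided, because so few pairs cannot exclude a shared block. The second strain was not checked in this way. With a replicate block the C57BL/6J calls numbered 5191, 2962 higher and 2229 lower, and the differences 290, 163 higher and 127 lower. Totals of 43146077 to 61381134 counts limit genes near the filter most.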
